A study of Mus musculus with 16 samples.

Results

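The glutathione S-transferases (GSTs) of mouse liver are described here through 10 genes of the alpha (Gsta2, Gsta3, Gsta4), mu (Gstm1, Gstm2, Gstm3, Gstm4, Gstm6), pi (Gstp1) and theta (Gstt1) classes, chosen by symbol as 10 of the 57010 genes in a table of liver RNA-seq. Liver poly(A) RNA of 16 wild-type male C57BL/6J mice was sequenced in 4 groups of 4 mice; the study's methods give an age of 8 to 12 weeks, its outline places the start of the 3-month diet at 8 weeks, and the age at sampling is not stated in the labels. Control mice had neither treatment, Cd mice were injected intraperitoneally with cadmium chloride (CdCl2) at 1.25 mg/kg for 7 days, Se mice were fed selenomethionine (SeMet) at 2 ppm for 3 months, and Cd+Se mice received both. The labels do not say what was injected into mice without Cd. Levels are given as TPM, transcript abundances scaled to the length of each transcript and to the same total in each mouse, so the sequencing depth is unknown and precision rests on the 4 mice of a group.

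Cytosolic GSTs are dimeric enzymes that join the thiol of glutathione to electrophilic compounds, among them drug metabolites, epoxides and aldehydes from oxidised lipids. The conjugates are pumped out of the hepatocyte and trimmed to mercapturates. Several GST genes are known targets of NRF2, a factor that electrophiles and metals activate and that binds antioxidant response elements, and of the xenobiotic receptors CAR and PXR. Cd binds to glutathione and to metallothioneins, and Se supplied as SeMet feeds the synthesis of selenoproteins, some of which use glutathione to reduce peroxides.

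The 5 mu genes lie in a cluster at chr3:107938847-108044894, Gsta4 and Gsta2 at chr9:78182774-78355788 with Gsta1 and Gsta5 between them, Gsta3 at chr1:21240589-21265661, Gstp1 at chr19:4035407-4037985 beside Gstp2, and Gstt1 at chr10:75783813-75798584 (GENCODE M21, GRCm38). Promoters of 9 of the 10 genes were matched in RefSeq (GRCm38.p6); Gsta4 was not. They were searched on both strands, from 250 bases before the start to 50 after it, for the antioxidant response element core TGACNNNGC and for its variant TGAGNNNGC. The core was present in 1 of the 9 genes (Gsta3) and the variant in 2 (Gstp1 and Gstt1), against 14% and 19.8% of 27025 genes with a promoter of the same length, and either was in 3 of 9 against 30.8%. RefSeq starts can differ from the ends of the GENCODE genes. A match of letters is a description and does not show that a factor binds there. The 130 bases upstream of the start are printed for the 3 genes with a match, for Gstp2 because its sequence resembles that of Gstp1, and for Gstm1, Gstm3 and Gstm4 because their levels moved together; capitals mark matches to either motif on either strand.
Gsta3 (chr1:21240455-21240584, plus strand): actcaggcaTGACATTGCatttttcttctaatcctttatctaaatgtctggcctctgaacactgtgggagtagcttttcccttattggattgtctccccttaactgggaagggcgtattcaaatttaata
Gstp1 (chr19:4037913-4038042, minus strand): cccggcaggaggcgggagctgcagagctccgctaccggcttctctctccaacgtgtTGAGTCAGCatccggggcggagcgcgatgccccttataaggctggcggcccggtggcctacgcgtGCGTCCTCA
Gstp2 (chr19:4042222-4042351, minus strand): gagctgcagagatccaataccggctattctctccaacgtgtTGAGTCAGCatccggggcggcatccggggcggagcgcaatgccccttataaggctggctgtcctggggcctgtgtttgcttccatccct
Gstt1 (chr10:75797732-75797861, minus strand): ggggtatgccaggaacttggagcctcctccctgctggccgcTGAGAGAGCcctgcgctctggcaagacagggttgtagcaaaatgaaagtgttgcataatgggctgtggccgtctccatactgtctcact
Gstm1 (chr3:108017974-108018103, minus strand): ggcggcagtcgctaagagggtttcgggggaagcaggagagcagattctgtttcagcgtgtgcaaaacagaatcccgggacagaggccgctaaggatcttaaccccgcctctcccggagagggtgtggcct
Gstm3 (chr3:107969175-107969304, minus strand): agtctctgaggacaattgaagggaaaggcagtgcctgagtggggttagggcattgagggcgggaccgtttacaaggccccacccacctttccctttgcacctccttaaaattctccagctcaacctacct
Gstm4 (chr3:108044860-108044989, minus strand): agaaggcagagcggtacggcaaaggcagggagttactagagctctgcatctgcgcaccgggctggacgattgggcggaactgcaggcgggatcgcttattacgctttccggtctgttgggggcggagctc
Counted from the start, the Gsta3 match TGACATTGC lies at bases -121 to -113, the Gstp1 match TGAGTCAGC at -74 to -66 and the Gstt1 match TGAGAGAGC at -89 to -81. The same TGAGTCAGC stands at -89 to -81 of Gstp2, and its first letters, TGAGTCA, are also those of an AP-1 site. Gstp1 has a further match, GCGTCCTCA on the opposite strand, at -9 to -1. The windows of Gstm1, Gstm3 and Gstm4 hold neither motif. Gstm1 and Gstm4 have 2 promoters each in RefSeq, of which 1 is printed, and 0 of the 2 held a motif for either gene.

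The group labels were checked with Mt1, which encodes a metallothionein and is induced by Cd. Its level was 116 ± 73.3 TPM (SD, n = 4) for control, 261 ± 158 TPM for Se, 4066 ± 707 TPM for Cd and 4879.6 ± 1274 TPM for Cd+Se, and each mouse given Cd lay above each mouse without it. Albumin mRNA, which marks hepatocytes, was at 52073 ± 8175 TPM in the control group, so the tissue label held. Of the 16 libraries, Cd+Se mouse 15 and Se mouse 40 had the lowest values of the highest correlation with any other library, 0.960 and 0.968. Cd+Se mouse 13 was close to the latter, at 0.969. Cd mouse 5 had the lowest mean correlation with the other libraries (0.954) and the fewest genes at 1 TPM or more (10917). Its share of TPM from mitochondrial genes was the largest, 22.2%, with 12.85% to 18.04% in the other mice. Se mouse 40 had the highest level of the 16 for 28.1% of the 11766 genes tested (those with a mean of at least 1 TPM, which include all 10 GST genes), and Cd mouse 5 had the lowest for 47.7%. In whole liver, fewer cells of a type and less RNA per cell cannot be told apart.

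The 10 GST mRNAs spanned a wide range of levels. Gstp1, the pi class enzyme that is abundant in male mouse liver, had the highest mean over 16 mice, 3624 TPM, which ranked it 41 among all genes of the table. Gstm1, the main mu enzyme of liver, was at 1969 TPM (rank 63) and Gsta3, an alpha enzyme known for conjugating the aflatoxin epoxide, at 1771 TPM (rank 71). These 3 genes held most of the summed level, with 45.7%, 24.8% and 22.3% of it. Gstt1, the theta enzyme that acts on halogenated methanes, followed at 185 TPM, then Gsta4, which prefers hydroxynonenal from oxidised lipids, at 89.7 TPM, Gstm6 at 77.2 TPM, Gstm3 at 73.8 TPM, Gstm2 at 72.1 TPM, Gsta2 at 40.3 TPM and Gstm4 at 26.9 TPM.

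**Figure D1:**
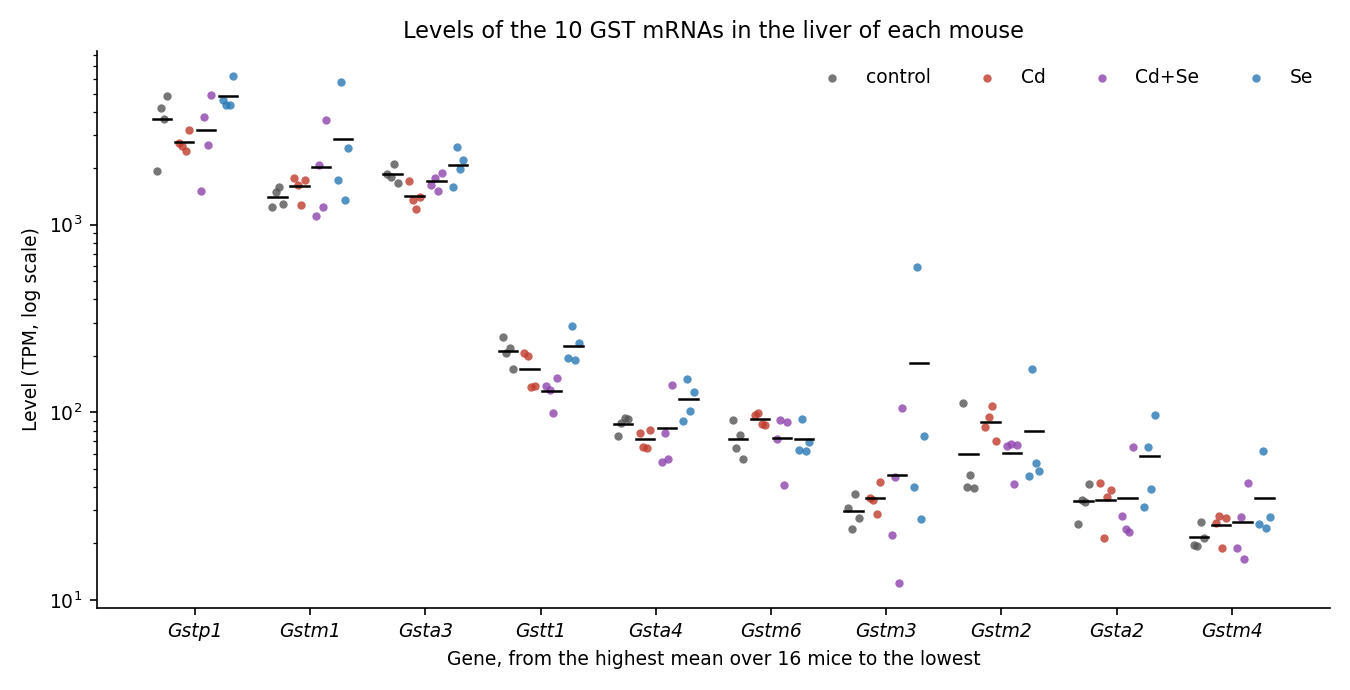
Level of each GST mRNA in TPM (log scale) in 16 mice, grouped by treatment and ordered by mean; points are mice and bars are group means (n = 4). Gstp1, Gstm1 and Gsta3 lie far above the other 7 genes, and Gstm3 has 1 Se mouse at 593 TPM.

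Neighbours in this order were compared within mice by an exact two-sided permutation test over 65536 sign patterns, for 9 neighbouring pairs. Gstm1 exceeded Gsta3 in 9 of 16 mice, and their difference was not larger than its spread (exact permutation p = 0.87, adjusted 0.87). Gsta4 exceeded Gstm6 in 9 of 16 mice (exact permutation p = 0.157, adjusted 0.177). Gstp1 was above Gstm1 in 15 of 16 mice (exact permutation p = 6.1e-05, adjusted 0.000183). Gstm3 had a higher mean than Gstm2 and yet was below it in 13 of 16 mice (exact permutation p = 0.023 on the log2 scale, adjusted 0.0296), and its mean held the 593 TPM of Se mouse 40. Gsta3 exceeded Gstt1, and Gstt1 exceeded Gsta4, in 16 of 16 mice.

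Some of these levels are uncertain because paralogues share sequence. Of the 100-base windows of the Gstp1 transcript, 52.8% were also found in Gstp2, whose level was 34.8 ± 14.4 TPM (SD, n = 4) in the control group. For Gsta2, 35.0% of the windows occurred in another GST transcript, mostly Gsta5, and Gsta5 was at most 0.15 TPM in any mouse. Of the Gsta1 windows 19.8% were found in Gsta2, and Gsta1 was highest in Cd+Se mouse 16 (35.9 TPM) and Se mouse 40 (23.6 TPM), where Gsta2 was 65.25 and 65.2 TPM, so part of the Gsta2 level in these mice is uncertain. The share was 3.8% for Gstm3, 2.41% for Gstm6 and 1.68% for Gstm1, and 0 for Gsta3, Gsta4, Gstm2, Gstm4 and Gstt1. How reads from shared sequence were assigned is not given in the sources used here.

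Of the 10 GST mRNAs, 9 varied more among mice of a group than the median gene did, Gsta3 being the exception. The within-group SD of log2(TPM + 1) had a median of 0.47 over the 10 genes and of 0.23 over the 11766 genes tested. Gstm3 was the most variable, with a within-group SD of 1.19, larger than that of 98.8% of tested genes, and a range from 12.4 TPM in Cd+Se mouse 15 to 593 TPM in Se mouse 40, which is 47.9-fold. Gsta3 was the least variable, with a within-group SD of 0.21 and a range of 2.16-fold. Differences between groups took up a median of 26.0% of the variance of the 10 genes, against 37.1% for all tested genes. Chance differences between group means also add to this share, and it was not corrected for them. It is therefore not the part of the variance due to treatment, and a low share does not show a group effect. The share was highest for Gstt1 (62.4%) and Gsta3 (55.2%) and lowest for Gstm2 (19.9%).

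**Figure D2:**
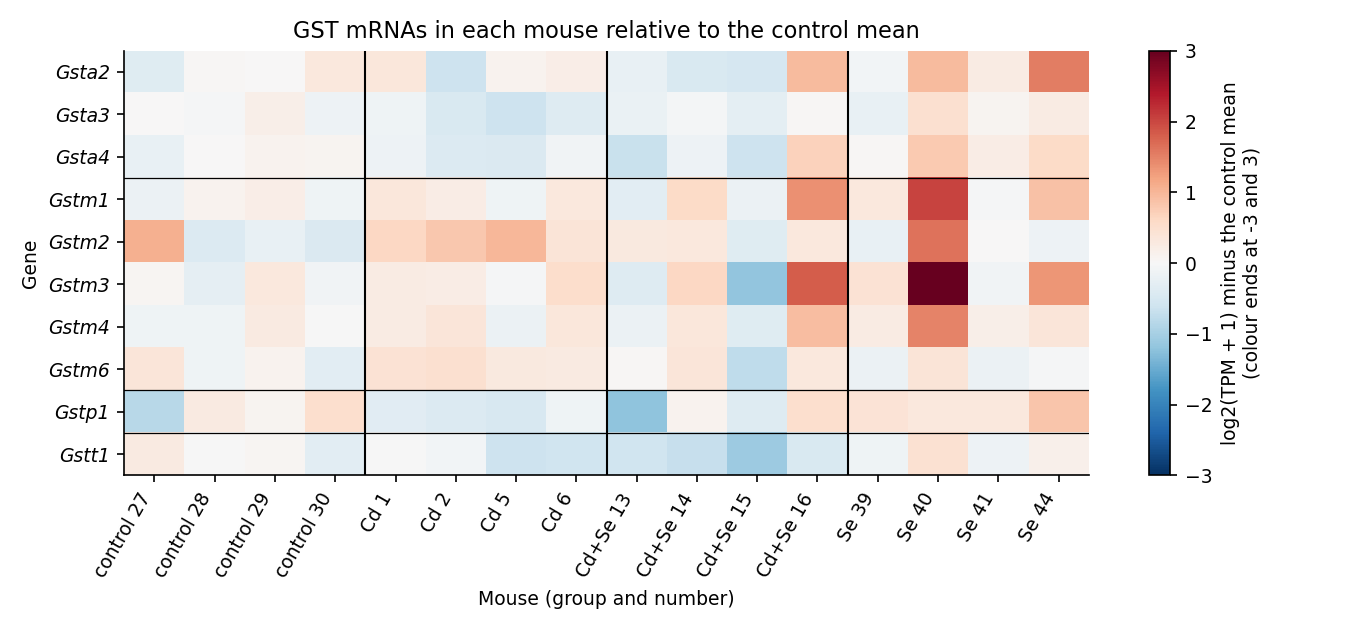
Each mouse's log2(TPM + 1) minus the control mean for the 10 GST genes (rows, ordered by class) in 16 mice (columns, ordered by group), with red for higher and blue for lower. All 10 genes are above the control mean in Se mouse 40, 9 are in Cd+Se mouse 16, and 0 are in Cd+Se mouse 15.

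The 4 mice of the Cd+Se and Se groups did not form tight sets. In Se mouse 40, 10 of 10 genes were above the control mean, with a median log2 difference of 0.87, and 7 of 10 had their highest level of the 16 mice. In Se mouse 44, 8 were above it, with a median of 0.46, and Gstp1 (6196 TPM) and Gsta2 (97.2 TPM) had their highest level. In Cd+Se mouse 16, 9 were above it, with a median of 0.59, while in Cd+Se mouse 15, 0 were, with a median of -0.44. The 4 Cd mice had between 3 and 6 genes above the control mean.

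In the Cd+Se group Gstm1 was 1116, 2087, 1246 and 3624 TPM and Gstm3 22.1, 45.4, 12.4 and 106 TPM for mice 13, 14, 15 and 16. Mouse 16 was the highest and mouse 14 the next for both genes, and mice 13 and 15 were below the control means. Gsta2 and Gstm4 were also highest in mouse 16, with 65.2 TPM of Gsta2 and 41.8 TPM of Gstm4 and at most 27.99 and 27.59 TPM in the other 3. Summed over the 10 genes, the GST mRNAs made up 0.745% of all TPM for control, 0.629% for Cd, 0.738% for Cd+Se and 1.06% for Se mice, and in each of the 4 comparisons below the sums of single mice overlapped. In the pathway annotation that came with the table, all 10 genes were listed under glutathione metabolism, among 54 genes tested.

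The Cd group against the control group addresses what Cd injection does to these mRNAs. In that comparison 0 of the 10 GST genes passed an adjusted p of 0.05 (limma), while 30.8% of the 11766 genes tested did, 24.9% lower and 5.82% higher in Cd mice. Of those calls 81.1% were lower, a share that was 57.1% after quantile normalization and 44.4% after median centring. All 5 mu genes had a positive log2 fold change in Cd mice, from 0.18 for Gstm1 (-0.012 after quantile normalization) to 0.70 for Gstm2, while Gsta3, Gsta4, Gstp1 and Gstt1 had negative ones and Gsta2 was at 0.01. The median over the 10 genes was 0.09 and that over all genes tested was -0.17. In limma 1 of the 10 genes had an unadjusted p under 0.05, Gsta3, as did 4997 of the 11766 genes tested. In an exact permutation test of the mice (70 possible splits, lowest possible p 0.0286) 0 of the 10 did. The groups overlapped for 10 of 10 GST genes, where 34.2% of tested genes had groups that did not overlap.

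Among the alpha genes, control mice 27, 28, 29 and 30 had 1868, 1804, 2112 and 1670.0 TPM of Gsta3, and Cd mice 1, 2, 5 and 6 had 1705, 1360.1, 1210.3 and 1413 TPM. Only Cd mouse 1 reached into the control range, and the other 3 Cd mice lay below it. The mean was 23.7% lower in Cd mice, 1422 ± 207 TPM (SD, n = 4) against 1863 ± 185 TPM, with a log2 fold change of -0.40 (SE 0.15, 95% interval -0.71 to -0.08, limma adjusted p = 0.0534). This value stood next to the threshold, and its limma adjusted p was under 0.05 in 9 of 27 alternatives, among them the fits without Cd mouse 1 (0.0255), Se mouse 39 (0.0326) or Se mouse 40 (0.0308) and quantile normalization (0.00899), whereas centring each library on its median gave 0.208 and leaving out Cd mouse 5 gave 0.145 at a log2 fold change of -0.32. Relative to the median of all genes, the difference was -0.22. Gsta4 stood at 87.1 ± 8.86 TPM (SD, n = 4) without and 71.8 ± 8.40 TPM with Cd. Its log2 fold change was -0.28 (SE 0.24). Gsta2, another alpha enzyme, stood at 33.6 ± 6.49 TPM and 34.2 ± 9.004 TPM. Neither difference passed the threshold (limma adjusted p = 0.402 and 0.991).

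Among the mu genes, Gstm2 was 113, 40, 46.1 and 39.6 TPM across control and 83.4, 94.5, 107 and 70.1 TPM across Cd mice. Control mouse 27 was higher than any Cd mouse, and the other 3 control mice were lower than every Cd mouse. The log2 fold change was 0.70 (SE 0.38, limma adjusted p = 0.17), and without control mouse 27 it was 1.05 (limma adjusted p = 0.0378). Gstm6 was 90.6, 64.6, 75.7 and 56.4 TPM across control and 96.4, 99.5, 86.9 and 85.97 TPM across Cd mice. Control mouse 27 was the only control mouse within the Cd range, and the log2 fold change was 0.38 (SE 0.21, limma adjusted p = 0.194); centring each library on its median gave 0.60 (limma adjusted p = 0.0261). Gstm1, at 1406 ± 169 TPM and 1601 ± 228 TPM, and Gstm3 and Gstm4 had log2 fold changes of 0.18, 0.24 and 0.19, with limma adjusted p between 0.640 and 0.832.

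Gstp1 was 1937, 4177, 3665 and 4881 TPM across control and 2724, 2628, 2478 and 3181 TPM across Cd mice. The 4 Cd mice lay close together inside the wide control range, which control mouse 27 extended downwards. The log2 fold change of -0.34 was about the size of its standard error, 0.31 (limma adjusted p = 0.428), and it was -0.62 without control mouse 27 and -0.18 without control mouse 30. Gstt1 stood at 213 ± 34.1 TPM (SD, n = 4) without and 171 ± 38.4 TPM with Cd, with Cd mice 5 and 6 below the control range and a log2 fold change of -0.33 (SE 0.19, limma adjusted p = 0.188).

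**Figure D3:**
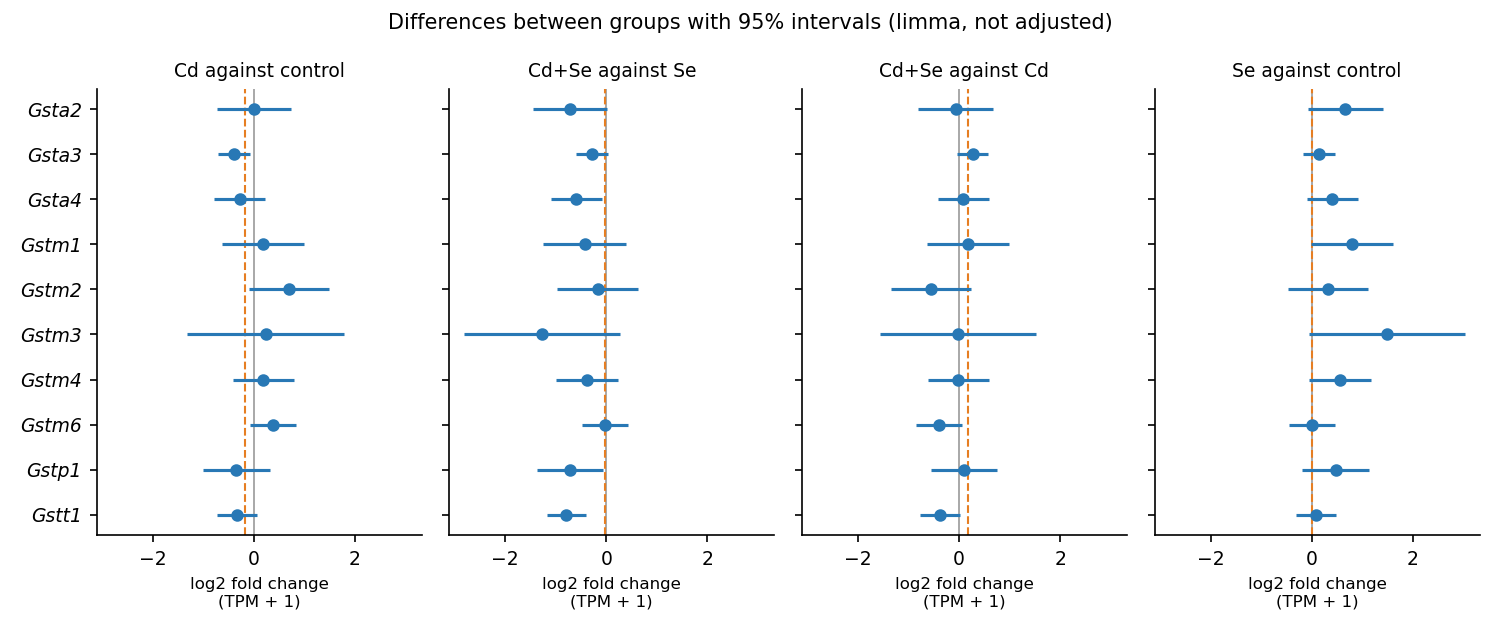
Log2 fold change of TPM + 1 for the 10 GST genes in 4 comparisons, with 95% intervals from limma before adjustment (lines); the dashed line is the median of all 11766 genes tested. The 5 mu genes are right of 0 in Cd against control (Gstm1 is at -0.012 after quantile normalization), and 10 of 10 genes are left of 0 in Cd+Se against Se and right of 0 in Se against control. These last comparisons share the 4 Se mice, Gstm6 changes sign in both under median centring (0.015 and -0.0070), and without Se mouse 40 Gstm2 and Gstm6 change sign in both and Gstt1 in Se against control.

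Within mice fed SeMet, Cd+Se was compared with Se to show what Cd does on that diet. Again 0 of 10 GST genes passed an adjusted p of 0.05 (limma), where 0.714% of the genes tested did. All 10 log2 fold changes were negative, with a median of -0.51 against -0.03 for all genes tested, though Gstm6, at -0.02, was at 0.012 after quantile normalization and 0.015 after median centring. An unadjusted limma p under 0.05 was found for Gstt1, Gsta4 and Gstp1, and for 1286 of the 11766 genes tested. By the exact permutation test it was found for Gstt1 among the 10. This direction was not stable for the mu genes, since without Se mouse 40 Gstm2 was at 0.26 and Gstm6 at 0.11, and Gstm1 moved from -0.43 to -0.02 and Gstm3 from -1.27 (limma adjusted p = 0.575) to -0.33 and Gstm4 from -0.38 to -0.070. Without Cd+Se mouse 15 Gstm6 was at 0.23, Gstm3 at -0.80 and Gstm4 at -0.20.

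Cd+Se mice 13, 14, 15 and 16 had 138, 131, 99.2 and 153 TPM of Gstt1, and Se mice 39, 40, 41 and 44 had 194, 289, 190.2 and 234 TPM. Each of the 4 Cd+Se mice lay below each Se mouse. The groups did not overlap for this 1 GST gene, nor for 5.64% of all genes tested, 3.68% in the same direction. The mean was 42.5% lower in Cd+Se mice, with a log2 fold change of -0.79 (SE 0.19, 95% interval -1.18 to -0.40, limma adjusted p = 0.0668), and the exact two-sided permutation p was 0.0286, the smallest this design can give, among 40 such tests of GST genes. The limma adjusted p ranged from 0.0126 with quantile normalization to 0.240 over the alternatives, and without Se mouse 40 the log2 fold change was -0.67 (limma adjusted p = 0.127).

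Gsta4 was 54.1, 77.9, 56.4 and 140.3 TPM across Cd+Se and 89.4, 151, 102 and 129 TPM across Se mice. Cd+Se mouse 16 lay among the Se mice and the other 3 below them. The log2 fold change was -0.59 (SE 0.24, limma adjusted p = 0.353), and -0.88 without Cd+Se mouse 16 (limma adjusted p = 0.0357). Gstp1 was 1505, 3758, 2649 and 4907 TPM across Cd+Se and 4622, 4331, 4349 and 6196 TPM across Se mice. Here too Cd+Se mouse 16 was the only one inside the Se range, with a log2 fold change of -0.72 (SE 0.31, limma adjusted p = 0.403), which was -0.97 without Cd+Se mouse 16 and -0.40 without Cd+Se mouse 13. Gsta2 had -0.72 and Gsta3 -0.28, neither past the threshold (limma adjusted p = 0.477 and 0.526). Leaving out each mouse, Gsta2 ran from -1.06 (without Cd+Se mouse 16) to -0.43 (without Se mouse 44) and Gsta3 from -0.40 (without Se mouse 39) to -0.16 (without Se mouse 40).

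Cd+Se against Cd asks what the SeMet diet changes under Cd; it shares the Cd mice with the first comparison and the Cd+Se mice with the second. In limma 0 of 10 GST genes had an unadjusted p under 0.05, where 3891 of the 11766 genes tested did. At an adjusted p of 0.05, 0 of 10 passed, where 15.9% of the genes tested did, 13.6% higher and 2.35% lower in Cd+Se mice. The lower share of those calls was 14.7%, or 43.7% and 57.6% under the same alternatives. The log2 fold changes were positive for 4 genes and negative for 6, with a median of -0.02 against 0.17 over all genes tested. The groups did not overlap for 1 GST gene, against 19.2% of genes tested. That gene was Gstm2, at 66.04, 67.5, 41.7 and 67.3 TPM in Cd+Se mice, each below the lowest Cd mouse at 70.1 TPM, as was so for 3.11% of genes tested. Its mean was 31.8% lower and its exact permutation p 0.0286, the smallest possible, while the log2 fold change of -0.55 missed the limma threshold (SE 0.38, adjusted p = 0.32). Gstt1 had -0.38 (SE 0.19, limma adjusted p = 0.168) and Gstm6 -0.39 (SE 0.21, limma adjusted p = 0.21); these were the 2 genes that passed when each library was centred on its median, at -0.57 and -0.59. Without Cd+Se mouse 15 Gstm6 was at -0.14 (limma adjusted p = 0.582) and Gstt1 at -0.25 (limma adjusted p = 0.376), and Gstm3 went from -0.02 to 0.44, Gstm4 from -0.01 to 0.17 and Gsta2 from -0.06 to 0.084. Gsta3 stood at 0.27 (limma adjusted p = 0.221).

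Se against control shows the diet alone and shares its Se mice with Cd+Se against Se. Of the 11766 genes, 0 passed an adjusted p of 0.05 in limma (454 had an unadjusted p under 0.05), so the background was 0%. Groups did not overlap for 0 of 10 GST genes and for 3.09% of genes tested. Among the 10 GST genes 0 had an unadjusted p under 0.05 in limma or in the exact permutation test. All 10 log2 fold changes were positive, from 0.00 for Gstm6 (-0.0070 after median centring) to 1.48 for Gstm3, with a median of 0.44 against 0.01 for all genes tested. Gstm3 was 30.8, 24.03, 36.7 and 27.2 TPM across control and 39.98, 593, 27.02 and 74.96 TPM across Se mice. Se mouse 40 was 20 times the control mean, Se mice 39 and 44 were above the control range, and Se mouse 41 was inside it. The log2 fold change of 1.48 had a standard error of 0.73 and was 0.55 without Se mouse 40. Gstm1 was 1246, 1501, 1595 and 1283 TPM across control and 1735, 5746, 1359 and 2564 TPM across Se mice, and its log2 fold change moved from 0.80 (SE 0.38) to 0.38 without that mouse. Without it Gstm2, Gstm6 and Gstt1 turned negative, at -0.12, -0.12 and -0.039, and Gstp1 was at 0.53 with each of the other 3 Se mice above the control mean.

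The interaction, which asks whether the difference made by Cd was the same on both diets, was called for 0 of the 10 GST genes and for 1.04% of all genes tested (limma). At an unadjusted limma p under 0.05 the count was also 0 of 10, where 2505 of the 11766 genes tested passed. A permutation test was not run on the interaction. The estimates were negative for 9 of 10 genes, with a median of -0.52 against 0.16 for all genes tested. They ran from -1.51 (SE 1.03) for Gstm3 to 0.12 (SE 0.21) for Gsta3. For Gstm2 the interaction was -0.87 (SE 0.53, limma adjusted p = 0.352). Without Se mouse 40 the estimates were -0.57 for Gstm3, -0.44 for Gstm2 and -0.20 for Gstm1, and 9 of 10 were still negative.

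Several GST mRNAs moved together from mouse to mouse. The Pearson correlation of log2(TPM + 1) over 16 mice was taken for 45 pairs. Of these, 21 had a permutation p under 0.05 after Benjamini-Hochberg adjustment over the pairs, all of them positive. Some rested partly on Se mouse 40, without which Gstm2 with Gstm3 went from r = 0.56 to 0.15 and Gsta3 with Gstm1 from 0.62 to 0.38. Not all passed by rank, as with Gsta3 and Gstm1 (rho = 0.43, permutation p adjusted 0.182). The same count was not made for pairs of other genes, so it has no background share. The genes share libraries and the mice share groups, so a coefficient after subtraction of group means is given for the closest pair. Gstm1, Gstm3 and Gstm4 gave the 3 highest. Gstm1 and Gstm3 had r = 0.95 and rho = 0.89 (permutation p = 1e-05 and 2e-05, the former the smallest that 100000 resamples give, adjusted 0.00015 and 0.0003), r = 0.84 without Se mouse 40 and Cd+Se mouse 16, the 2 mice farthest from the median of Gstm1, and r = 0.95 after subtraction of group means. Gstm1 with Gstm4 had r = 0.95 and rho = 0.88, with r = 0.80 without the same mice, and Gstm3 with Gstm4 had r = 0.95 and rho = 0.88, with r = 0.83 without them. Gstm2 did not go with this trio. Its r with Gstm1 was 0.41 (rho = 0.20, permutation p = 0.114 and 0.455, adjusted 0.165 and 0.539) and -0.11 without the same 2 mice. It went instead with Gstm6, at r = 0.76 and rho = 0.86 (permutation p = 0.00077 and 4e-05, adjusted 0.00346 and 0.00045), with r = 0.80 without Se mouse 40 and control mouse 27.

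**Figure D4:**
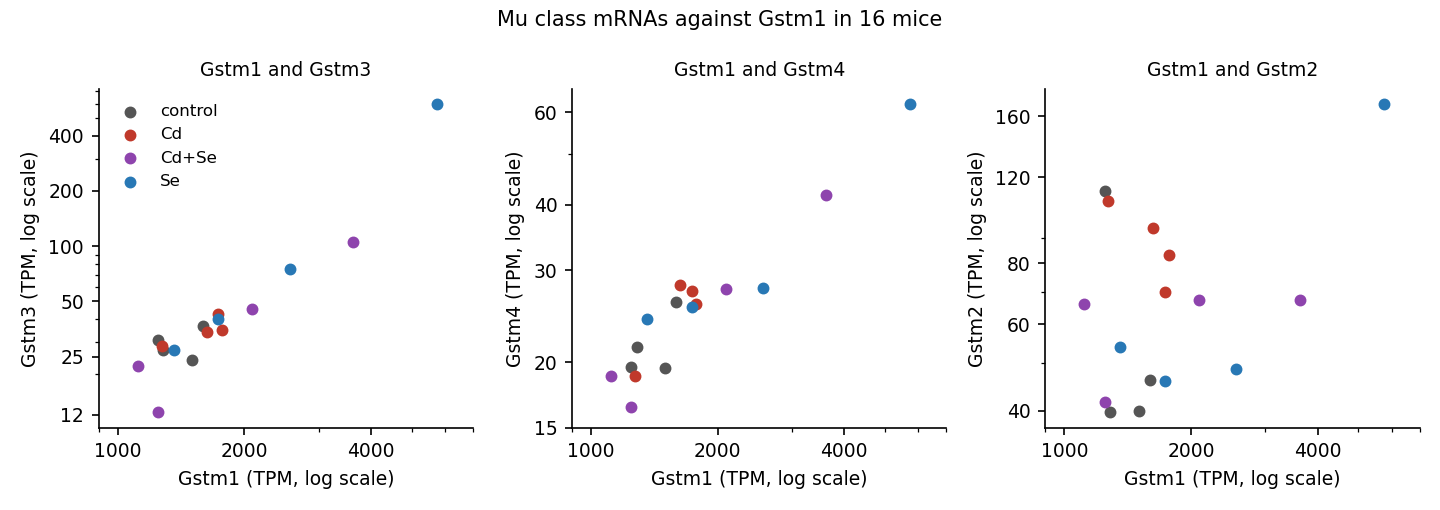
Gstm3, Gstm4 and Gstm2 against Gstm1 in TPM (log scales), with 1 point per mouse coloured by group, n = 16. Gstm3 and Gstm4 go up with Gstm1 across all 4 groups (r = 0.95 for each), whereas Gstm2 does not follow it (r = 0.41).

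Outside the mu class, Gsta4 went with Gsta2 at r = 0.83 and rho = 0.73 (permutation p = 9e-05 and 0.00214, adjusted 0.00081 and 0.0138) and with Gstp1 at r = 0.81 and rho = 0.87 (permutation p = 0.00018 and 5e-05, adjusted 0.00116 and 0.00045), which were 0.78 and 0.87 without the 2 mice farthest from the median. Gsta4 also had r = 0.81 with Gstm1 and 0.79 with Gstm3, which dropped to 0.62 and 0.67. Gstp1 and Gstm2 had the lowest coefficient, -0.38 (rho = -0.45, permutation p = 0.152 and 0.0818, adjusted 0.19 and 0.16). The median was 0.58 over the 13 pairs of the same class and 0.48 over the 32 pairs of different classes. Among tested genes that are not GSTs, the pattern most like that of Gsta2 was that of Cyp2a5, a cytochrome P450 (r = 0.88 over 16 mice, 0.87 without Se mouse 40). Gsta3 was nearest to Itga5 (0.94 and 0.91) and to Sord, sorbitol dehydrogenase (0.94 and 0.94), and Gstp1 to Extl1 (0.91 and 0.91). Slc1a4, a neutral amino acid transporter, was among the 3 nearest genes of Gstm1, Gstm3 and Gstm4 (0.93, 0.91 and 0.89, or 0.87, 0.87 and 0.79 without Se mouse 40), and Nqo2, a quinone reductase, among those of Gstm6 (0.88 and 0.91). These coefficients were picked as the highest of many and are descriptions. Slc1a4, with a mean of 1.22 TPM, was close to the filter of 1 TPM, and Extl1 (2.40 TPM) and Itga5 (5.53 TPM) were low as well. Cyp2a5, Sord and Nqo2 had means of 347, 752 and 51.0 TPM.

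Among 9 tested genes of the other cytosolic GSTs, 1 rose (Gstp2) and 2 fell (Gstz1 and Gstt3) in Cd against control, with a list median of -0.08 against -0.17 for all genes. These 3 of 9 are near the 30.8% called over all genes. Gstp2 was 31.8, 54.3, 33.3 and 19.7 TPM across control and 88.7, 69.3, 63.1 and 63.9 TPM across Cd mice, each Cd mouse above each control mouse (log2 fold change 1.09, SE 0.32, limma adjusted p = 0.0168); reads shared with Gstp1, whose level is far higher, make it uncertain. Gstz1, the zeta enzyme that isomerises maleylacetoacetate in tyrosine breakdown, fell from 621 ± 27.6 TPM to 412 ± 63.8 TPM (log2 fold change -0.60, SE 0.12, limma adjusted p = 0.00199). Gstt3, a theta gene beside Gstt1, fell from 21.6 ± 2.99 TPM to 12.8 ± 2.77 TPM (limma adjusted p = 0.00569). The first gene of that list, Gsta1, stood at 2.96 ± 1.05 TPM without and 7.01 ± 2.90 TPM with Cd (limma adjusted p = 0.178). Of the 3 tested mitochondrial and membrane GSTs, Mgst1, the microsomal enzyme with a level above that of Gstp1, rose from 4886 ± 123 TPM to 6134 ± 258 TPM (log2 fold change 0.33, SE 0.09, limma adjusted p = 0.0139), and Mgst3 was lower in Cd+Se than in Cd mice (log2 fold change -0.61, limma adjusted p = 0.0442), where 2.35% of all genes tested were lower, though this call held in 4 of 16 fits that each left out 1 mouse; the first of the list, Gstk1, was at 0.03 in Cd against control.

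Genes that supply glutathione and carry off its conjugates were counted in the same comparison. Of 14 tested genes of glutathione synthesis and recycling, 2 rose in Cd against control (Gclm and Anpep) and 2 fell (Oplah and Ggt6), with a median of 0.12, where 5.82% of all genes tested rose and 24.9% fell. Gclm, the modifier subunit of the ligase that starts glutathione synthesis, went from 99.98 ± 3.402 TPM (SD, n = 4) to 155 ± 17.1 TPM (log2 fold change 0.63, SE 0.19, limma adjusted p = 0.0205). Its catalytic partner Gclc had 0.57 (limma adjusted p = 0.11). Oplah, which opens the ring of oxoproline so that its glutamate can be reused, had -0.94 (limma adjusted p = 0.00078) and Ggt6, of the gamma-glutamyltransferase family, -0.83 (limma adjusted p = 0.00112). Between the 2 groups given Cd, Oplah and Ggt6 were higher and Anpep lower with Se (limma adjusted p = 0.021, 0.0192 and 0.0374), where 13.6% of all genes tested were higher and 2.35% lower. The Anpep call held in 9 of 16 fits that each left out 1 mouse, and the Oplah and Ggt6 calls in 14 each. In Cd against control the Anpep call held in 13 of those fits. Of 9 tested genes of conjugate export and mercapturate formation, 0 rose and 1 fell in Cd against control (Acy1, an aminoacylase, at -0.30, limma adjusted p = 0.0391, a call kept in 9 of those 16 fits). Abcc2, the canalicular pump for glutathione conjugates, was at 0.37 (limma adjusted p = 0.0556).

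Known regulators and other targets of the same factors were counted beside them. Of 10 tested NRF2 targets outside the GSTs, 2 rose in Cd against control, Gclm and the heme oxygenase gene Hmox1 (0.81, limma adjusted p = 0.0211). This Hmox1 call held in 15 of 16 fits that each left out 1 mouse. Hmox1 alone passed in Cd+Se against Se (1.91) and in Cd+Se against Cd (1.11). The first of the list, Nqo1, was at 0.37 (limma adjusted p = 0.31). Of 10 tested CAR and PXR targets outside the GSTs, 0 rose and 6 fell in Cd against control, among them Por, the electron donor of cytochromes P450, at -1.39 (limma adjusted p = 0.00146), and 2 fell in Cd+Se against Se, Cyp3a11 (-1.51) and Ces2a (-0.87). Of the 6 that fell in Cd against control, Abcb1a kept its call in 10 of 16 fits that each left out 1 mouse. Cyp3a11 was at 1726 TPM in Se mouse 40, the highest of the 16 mice, and without that mouse it had -1.19 (limma adjusted p = 0.0829) and Ces2a -0.79 (limma adjusted p = 0.0345); the Cyp3a11 call held in 4 of 16 fits that each left out 1 mouse. Of 18 regulators of GST genes, 2 rose in Cd against control (Maff and Mafk, small partners of NRF2, whose calls held in 3 and 12 of 16 fits that each left out 1 mouse) and 6 fell, among them Ppara (-1.15), Rxra (-1.05) and Hnf4a (-0.81). Over all genes tested 5.82% rose and 24.9% fell, and in Cd+Se against Cd 13.6% were higher. In Cd+Se against Se 0.544% were higher and 0.17% lower, and the interaction was called positive for 0.901% and negative for 0.136%. The NRF2 gene itself, Nfe2l2, was at 0.29 (limma adjusted p = 0.276). With Se on top of Cd, 4 of the 18 were higher than with Cd alone (Ppara, Arnt, Rxra and Hnf4a), and Rxra also passed in the interaction (limma adjusted p = 0.029), a call that 9 of the 16 fits kept. The Hnf4a call in Cd+Se against Cd held in 13 of those fits.

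Cell type markers and the mouse with the highest GST levels were described alongside. The summed level of 6 Kupffer cell markers, of which Cd5l was the most abundant, was 136, 149.8, 129 and 159.8 TPM across control, 66.2, 45.9, 55.2 and 70.9 TPM across Cd, 41.5, 77.99, 76.3 and 86.5 TPM across Cd+Se and 79.7, 173, 142 and 98.1 TPM across Se mice. Each Cd mouse lay below each control mouse, and 6 of 6 markers fell past the threshold, of which Cd5l kept its call in 11 of 16 fits that each left out 1 mouse. The sum of 6 neutrophil markers, led by S100a9, was 15.9, 5.82, 10.4 and 16.1 TPM across control, 38.7, 40.05, 34.4 and 31.3 TPM across Cd, 73.8, 44.5, 47.8 and 50.5 TPM across Cd+Se and 5.17, 8.61, 9.44 and 8.13 TPM across Se mice, and the 3 markers that were tested rose in Cd against control. The sum of 10 pericentral hepatocyte markers, led by Cyp2e1, was 5730.1 ± 283 TPM in the control and 4835 ± 346 TPM in the Cd group (SD, n = 4), with 2 genes higher and 1 lower past the threshold. The 2 higher genes were Lect2 and Rhbg, whose calls held in 4 and 12 of those 16 fits. Over all genes tested in Cd against control 30.8% were called, 5.82% higher and 24.9% lower, so the 3 of 10 pericentral genes are near that share. The part of these shifts in the GST values was not tested.

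Se mouse 40 also had the highest level of the 16 mice for 7 of 10 tested NRF2 targets and 6 of 10 CAR and PXR targets, as well as 5 of 6 Kupffer cell and 4 of 8 hepatocyte markers, against 28.1% of all genes tested, and the lowest for 8 of 12 male-biased liver genes, against 2.05%. Other lists had fewer, with 0 of 6 endothelial, 0 of 5 monocyte and macrophage, 1 of 10 pericentral and 1 of 8 periportal markers highest in Se mouse 40. It was highest for 2 of 9 other cytosolic GSTs, 2 of 9 conjugate export genes, 5 of 14 glutathione synthesis and recycling genes and 6 of 18 regulators. Its Hsd3b5, a male-biased steroid dehydrogenase gene, was 6.78 TPM, with 137, 72.8 and 96.4 TPM in the other Se mice. The part of these differences in its GST levels was not tested.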

How the data were processed

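Liver RNA was extracted with TRIzol, poly(A)-selected and sequenced on an Illumina NovaSeq per the labels. The authors deposited 1 table of TPM (transcripts scaled to length and to a fixed total) for 57010 genes and 16 mice; fastp, HISAT2 and StringTie are named in the submitters' processing notes, without versions. Those notes name GRCh38, a human build, although 57010 of 57010 gene identifiers are mouse, so the build is uncertain; positions here are from GENCODE M21 (GRCm38) by Ensembl identifier and promoters from RefSeq. TPM keep no depth, so no counting intervals are given.

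Groups were taken from the treatment labels of the samples, and columns were matched to samples by the sample titles, 1 column per mouse. The labels name no batch. Titles list "rep1,rep2" for each mouse, but the table has 1 column per mouse. Values were compared as log2(TPM + 1), a pseudocount of 1 that understates changes of low genes, for 11766 genes whose mean over the mice reached 1 TPM, in 1 limma 3.58.1 model with an intensity trend (R 4.3.3), 5 contrasts and Benjamini-Hochberg adjustment over all genes. The GST genes passed this filter in 10 of 10 cases. P-values measure the spread between these mice. Single genes were also compared by exact two-sided permutation of mice, and correlations by 100000 permutations (scipy 1.17.1, numpy 2.4.6). The limma step was tested on simulated data with independent noise for each gene and no outlying mouse, unlike the data here.

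The genes and lists were chosen with earlier results of these data known. All 10 GST genes are named. From each other list the text gives counts and may name its first gene and up to 6 genes with the largest changes past the threshold; the 3 nearest patterns of each GST gene are those with the highest r over 16 mice, of which a selection is named. Lists of monocytes and macrophages, endothelial, stellate, cholangiocyte, lymphocyte, erythroid, periportal and hepatocyte markers were summed in each mouse and are given at the end, with male-biased and female-biased liver genes. Alternatives were a pseudocount of 0.1, no filter, a mean of at least 5 TPM, quantile normalization, median centring, totals without the 10 highest genes, protein-coding genes only, only the groups compared, no trend, an added log2 threshold of 1 and leaving out each mouse; robust eBayes and leaving out Se mouse 40 with Cd+Se mouse 15 were chosen after seeing the data. Further genes of the conjugate export and female-biased lists are not reported here. The kidney and cell experiments of the study were not analysed here.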

Additional observations from a re-analysis of the deposited data

Results flagged for a closer look

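In groups of 4 mice, a mouse was picked out when its gap to the nearest other mouse on the log2(TPM + 1) scale, as a share of the whole range, was above Dixon's critical value at 95%. Of 40 groups (10 genes in 4 groups), 4 were picked out, where about 2 would be by chance. Gstm2 was 113 TPM in control mouse 27, with the next control mouse at 46.1 TPM (log2 gap 0.857 of the log2 range). Gstm2 was 41.7 TPM in Cd+Se mouse 15, with the next at 66.0 TPM (0.956). In Se mouse 40, Gstm2 was 169 TPM with the next Se mouse at 53.9 TPM (0.877), and Gstm4 was 62.2 TPM with the next at 27.7 TPM (0.859).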

How the results depend on the processing

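Of 1340 values of the 50 GST results (10 genes, 5 contrasts) under 27 alternatives, 1268 kept their direction and side of the threshold, 20 passed it and 52 changed sign; 33 results kept their direction throughout. GST genes called, 0 in each contrast above, came to 1 in Cd against control with a mean of at least 5 TPM, quantile normalization, totals without the 10 highest genes, only the groups compared or robust eBayes (Gsta3 each time) and with median centring (Gstm6), and to 3 without Se mouse 40 and Cd+Se mouse 15 together (Gsta3, Gstm2 and Gstm6). In Cd+Se against Se they came to 1, Gstt1, with quantile normalization, median centring, totals without the 10 highest genes or protein-coding genes only, and in Cd+Se against Cd to 2 with median centring. Leaving out each mouse gave 0 to 1 in Cd against control (Gstm2 without control mouse 27, Gsta3 without Cd mouse 1, Se mouse 39 or Se mouse 40) and 0 to 1 in Cd+Se against Se (Gsta4 without Cd+Se mouse 16). The cause was not tested. Without Cd mouse 5 the count was 0 in each contrast.

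Signs changed on the log2 scale as follows. Quantile normalization gave -0.012 for Gstm1 in Cd against control and 0.012 for Gstm6 in Cd+Se against Se. Median centring gave 0.015 for Gstm6 in Cd+Se against Se, -0.11, -0.013 and -0.099 for Gsta4, Gstm1 and Gstp1 in Cd+Se against Cd, -0.0070 for Gstm6 in Se against control and -0.067 for the Gsta3 interaction. Totals without the 10 highest genes gave -0.044 for Gsta2 in Cd against control and -0.019 for Gstm6 in Se against control, and protein-coding genes only gave -0.0032 for Gstm6 in Se against control. Without Se mouse 40 and Cd+Se mouse 15, Cd+Se against Se gave 0.16, 0.43, 0.13, 0.11 and 0.36 for Gstm1, Gstm2, Gstm3, Gstm4 and Gstm6, Cd+Se against Cd gave 0.084, 0.44 and 0.17 for Gsta2, Gstm3 and Gstm4, and Se against control gave -0.12, -0.12 and -0.039 for Gstm2, Gstm6 and Gstt1. Leaving out each mouse, Gsta2 ran from -0.11 to 0.21 in Cd against control. In Cd+Se against Cd, Gsta2 ran from -0.40 to 0.084, Gsta4 from -0.20 to 0.25, Gstm1 from -0.15 to 0.41, Gstm3 from -0.55 to 0.44, Gstm4 from -0.26 to 0.17 and Gstp1 from -0.15 to 0.42. In Cd+Se against Se, Gstm2 ran from -0.36 to 0.26 and Gstm6 from -0.14 to 0.23. In Se against control, Gstm2 ran from -0.12 to 0.67, Gstm6 from -0.12 to 0.12 and Gstt1 from -0.039 to 0.17, and the Gsta3 interaction from -0.0091 to 0.23.

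The scaling moved the background. The median log2 fold change of all genes in Cd against control went from -0.17 to -0.01 with quantile normalization and 0.05 with median centring, and the share of calls that were lower from 81.1% to 57.1% and 44.4%. In Cd+Se against Cd the median went from 0.17 to 0.01 and -0.02, and the share lower from 14.7% to 43.7% and 57.6%. Genes called among all tested were 3619, 84, 1876, 0 and 122 in the 5 contrasts. They came to 66 in Cd+Se against Cd and 11 in Cd+Se against Se with only the groups compared, to 712 in Cd+Se against Cd without Cd+Se mouse 14 and 767 without Cd mouse 5, to 28 and 193 in Cd+Se against Se without Se mouse 44 and Cd+Se mouse 15, to between 2 (without control mouse 29) and 731 (median centring) in the interaction, and with a log2 threshold of 1 to 376, 58, 110, 0 and 71. No paired analysis was possible because mouse numbers are not shared between groups and the replicate numbers in the titles are the same for each mouse. With 4 mice a group the permutation test cannot go under 0.0286, and without depth the counting error of the low genes is unknown.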

Other observations

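Liver genes biased to 1 sex were counted as well. Of 12 male-biased genes tested, 0 rose and 2 fell in Cd against control (C6, a complement component, at -0.84, and Ces2e, a carboxylesterase, at -0.62), with a median of -0.44 against -0.17 for all genes tested. Over all genes tested 24.9% fell. C6 and Serpina1e were the 2 of the 12 that were higher with both treatments than with Cd (limma), near the 13.6% of all genes tested that were. These 2 calls held in 15 and 11 of 16 fits that each left out 1 mouse. Of 9 female-biased genes, 1 was tested, Cyp2c40, which fell in Cd against control (-0.94, limma adjusted p = 0.0038) and had the higher level in Cd+Se against Cd (0.81, limma adjusted p = 0.0192). Its call in Cd+Se against Cd held in 13 of those 16 fits.

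The remaining marker lists are given as summed TPM (mean ± SD, n = 4) in the order control, Cd, Cd+Se and Se. The 8 hepatocyte markers, mostly Alb, were at 74710.0 ± 9322, 58213 ± 14261, 66864 ± 9111 and 80616 ± 24855, and in Cd against control Apoc3 was higher and Cps1 and Fga lower past the threshold. The 8 periportal markers, led by Ass1, were at 3952 ± 366, 3757 ± 328, 3902 ± 1092 and 3374 ± 225, with Cyp2f2 lower in Cd against control. The 6 monocyte and macrophage markers, led by Lyz2, were at 59.3 ± 9.96, 55.8 ± 8.87, 101 ± 22.6 and 57.2 ± 10.1, and of 5 tested in Cd against control Ly6c2 and Ccr2 rose and Adgre1 fell. The Ly6c2 and Ccr2 calls held in 14 and 12 of 16 fits that each left out 1 mouse. The 6 endothelial markers were at 68.5 ± 5.54, 49.6 ± 8.34, 67.95 ± 18.2 and 54.6 ± 11.02, the 6 stellate cell markers at 114 ± 19.97, 96.3 ± 21.2, 135 ± 50.1 and 106 ± 28.1, the 6 cholangiocyte markers at 39.4 ± 7.70, 41.6 ± 9.41, 40.4 ± 15.03 and 34.7 ± 4.80, the 6 lymphocyte markers at 3.05 ± 1.08, 3.66 ± 0.674, 3.75 ± 2.10 and 1.75 ± 1.13 and the 5 erythroid markers at 1113 ± 443, 1042 ± 256, 1125 ± 399.5 and 1201 ± 377. In Cd against control 2 of 6 endothelial markers (Kdr and Stab2) and 1 of 3 tested stellate cell markers (Reln) fell, where 24.9% of all genes tested did and 5.82% rose, 0 of 1 cholangiocyte and 0 of 5 erythroid markers passed the test (limma), and 0 lymphocyte markers were tested. The Kdr and Stab2 calls held in 14 and 13 of those 16 fits.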
